A study of Gallus gallus with 4 samples.

Results

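Ubiquitin-conjugating enzymes (UBE2 genes) and the ubiquitin-specific proteases (USP genes) were compared in the breast muscle of a native chicken and a broiler. Members were taken by name, as every row whose single gene name begins with UBE2, or with USP followed by a digit. That choice was made with earlier results of these data known. The rule found 66 of 18973 rows, 26 with a UBE2 name and 40 with a USP name, which carry 65 distinct names because UBE2J2 stands on 2 rows. The authors tested 60 of these rows for a difference between the breeds, 23 UBE2 and 37 USP.

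Proteins are marked with ubiquitin in a relay. An activating enzyme (E1) charges ubiquitin, a conjugating enzyme (E2) carries it on a cysteine, and a ligase (E3) brings the E2 to the substrate, so that the choice of E2 helps to set which kind of ubiquitin chain is built. Deubiquitinases, of which the USP proteins are the largest family, cut ubiquitin off again. In skeletal muscle this system feeds the proteasome and takes part in the breakdown of contractile proteins, and in rodents several of its E2, E3 and USP genes are induced when muscle wastes.

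Messenger RNA came from the pectoralis muscle of Isfahani birds, a native Iranian chicken, and of Ross 708 birds, a commercial broiler line, both at day 28 after hatching and with no treatment named in the labels. Sequencing was of 2 libraries per breed. A library held the RNA of 3 birds mixed in equal parts, 6 birds per breed in all, so differences between single birds are hidden. All values are the authors' FPKM (fragments scaled by transcript length and by library size), with 1 value per breed. With no value for a single library at hand, breed values have no SD and no n, and sequencing depth is unknown. Because FPKM is scaled by transcript length, levels can be set side by side between genes. In the table the breeds are "Native", as the Isfahani label reads, and "Commercial", which was assigned to Ross 708 as the remaining group.

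A ratio below is the log2 of Ross 708 FPKM plus 1 over that of Isfahani FPKM plus 1. It is negative where the level was lower in Ross 708, and it is pulled towards 0 for genes of low level. A gene was called when its q-value in the authors' deposited table was at or under 0.05. The error given with a ratio is the standard error that the deposited p-value implies, namely the deposited log2 fold change divided by the normal quantile of its two-sided p. It belongs to the deposited log2 fold change, which has no pseudocount. For genes of low level that change is larger in size than the ratio, as for USP49 (-0.65 against -0.32). The error rests on the authors' own model of 2 pools per breed, so it is not a measured spread between birds. Its median over the 60 tested members was 0.29 on the log2 scale, against 0.34 over 11573 tested rows for which it could be computed.

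Of the E2 genes, UBE2B and UBE2Q2 were lower in Ross 708. UBE2B (chromosome 13, 15177673 to 15199863, galGal5) encodes a RAD6-type E2 that works with the N-end rule ligases and, with other ligases, on histone H2B and PCNA. It is induced in wasting muscle of rodents. Its level was 162 FPKM in Isfahani and 69.3 FPKM in Ross 708, or 42.7% of the Isfahani level. The log2 ratio was -1.22 (q = 0.00245 in the authors' deposited table). Its implied standard error was at most 0.30, since its deposited p of 5e-05 is the smallest that the authors list. That smallest p is shared by 237 tested rows, so it does not rank UBE2B above the others.

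UBE2Q2 (chromosome 10, 2999036 to 3036353, galGal5), a divergent E2 with a long N-terminal extension, stood at 199.8 FPKM in Isfahani and 104 FPKM in Ross 708. The log2 ratio was -0.93 with an implied standard error of 0.28 (q = 0.0233 in the authors' deposited table). Neither locus overlaps another row of the table. In Isfahani UBE2Q2 held the second place among the tested E2 genes by level and UBE2B the fourth; in Ross 708 they held the third and the eighth.

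These 2 calls are 8.70% of the 23 tested UBE2 rows, where 2.14% of all 11626 tested rows were called lower in Ross 708. No UBE2 gene was called higher (3.07% of all tested rows were). None of the 37 tested USP genes was called in either direction by the authors' test, in which 5.21% of all tested rows were called. At an unadjusted deposited p at or under 0.05, 6 UBE2 rows (26.1%) and 7 USP rows (18.9%) were lower in Ross 708, against a background of 7.96%. In the other direction the counts were 0 UBE2 rows and 1 USP row (2.70%), against 9.06%. The background depends on level: of 4716 tested rows with a mean of at least 10 FPKM, 578 were lower at that p and 371 higher. On the same filter 6 of 19 UBE2 rows and 6 of 21 USP rows were lower, and 0 of either family higher. The filter leaves out USP53, the USP row that was higher at that p. By q at or under 0.05, 167 of the 4716 rows were called lower, with 2 of the 19 UBE2 rows and 0 of the 21 USP rows. At a q-value at or under 0.1 the counts lower in Ross 708 were 3 UBE2 rows and 2 USP rows, with 3.18% of all tested rows, and the count higher was 1 USP row, with 4.32%. Breed values alone were lower in Ross 708 for 20 of 23 UBE2 rows and 26 of 37 USP rows, while 53.5% of all tested rows were lower there.

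**Figure D1:**
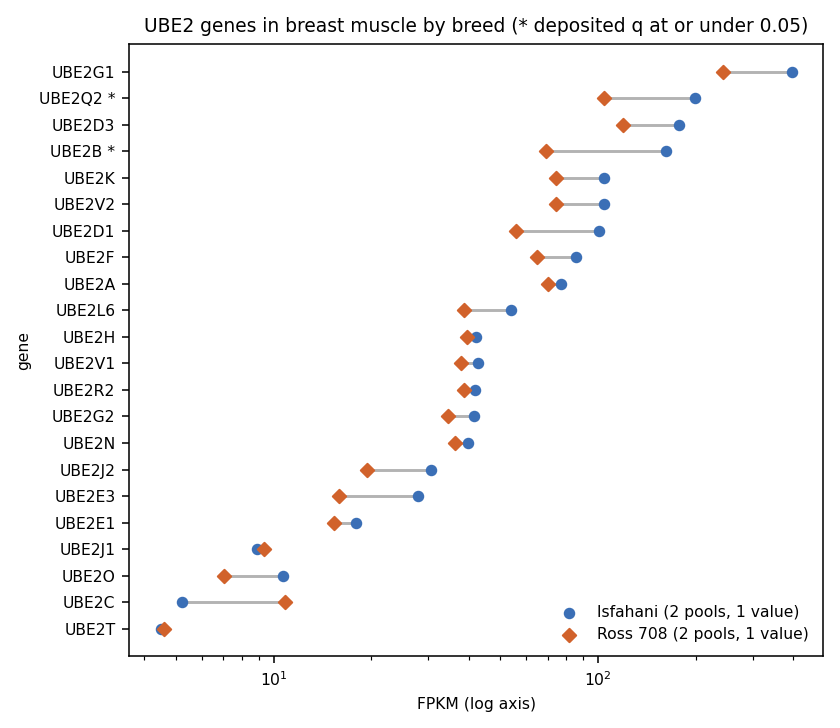
FPKM (log axis) of 22 of the 23 tested UBE2 genes, 1 row per gene, with a circle for Isfahani and a diamond for Ross 708, each a single value from 2 pools. UBE2G1 leads in both breeds, and UBE2B, at 162 and 69.3 FPKM, is marked with UBE2Q2 as called.

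E2 messages were abundant in this muscle. Tested UBE2 genes ranged from 4.49 FPKM (UBE2T) to 396 FPKM (UBE2G1) in Isfahani, with a median of 42.8, where the median of all tested rows was 6.93. In Ross 708 the median was 38.8 FPKM against 6.96. The median UBE2 gene stood at percentile 86.4 of all tested rows in Isfahani and 86.3 in Ross 708. Of 23 tested E2 genes, 7 reached 100 FPKM in Isfahani and 3 did so in Ross 708. The order of levels was close to the same in the breeds (Spearman's rho 0.97 across 23 genes, a description only, since genes share the same pools).

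UBE2G1, an E2 linked to endoplasmic reticulum quality control and to Lys48 chains, was the most abundant member, with 396 FPKM in Isfahani and 243 FPKM in Ross 708. It made up 21.2% of the summed FPKM of the tested E2 genes in Isfahani and 19.4% in Ross 708. Its log2 ratio of -0.70 (implied standard error 0.30) missed the threshold, with q = 0.171 in the authors' deposited table. UBE2G2, its relative in the same degradation pathway, stood at 41.6 and 34.5 FPKM (q = 0.795 in the authors' deposited table).

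The membrane-anchored E2 enzymes of the endoplasmic reticulum had unlike ratios. UBE2J2 stood at 30.5 FPKM in Isfahani and 19.4 FPKM in Ross 708, a log2 ratio of -0.63 (implied standard error 0.28, q = 0.181 in the authors' deposited table). UBE2J1 stood at 8.91 and 9.36 FPKM, with a log2 ratio of 0.064 (implied standard error 0.33). The second UBE2J2 row, at the same locus, was not tested and was listed at 0.448 FPKM and 0. Whether the pair differ in their response was not tested.

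The UBE2D and UBE2E enzymes are broad E2 partners of many RING ligases, the muscle ligase MuRF1 among them. All 4 measured genes were lower in Ross 708 in value and none was called. All have a mean of at least 10 FPKM, and 64.2% of such tested rows were lower there in value. By q at or under 0.05, 152 of those 4716 rows were called higher and 167 lower. UBE2D3 stood at 177 and 119 FPKM (log2 ratio -0.57, implied standard error 0.27, q = 0.243 in the authors' deposited table). UBE2D1 stood at 101 and 55.7 FPKM, a larger log2 ratio of -0.85 with a much larger implied standard error of 0.65 (q = 0.563 in the authors' deposited table); both CISD1 rows overlap its locus.

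UBE2E3 came nearest to the threshold among E2 genes that were not called, with 27.9 FPKM in Isfahani and 15.9 FPKM in Ross 708. The log2 ratio was -0.77 with an implied standard error of 0.29 (p = 0.0051, q = 0.0777 in the authors' deposited table). UBE2E1, its close relative, stood at 18.01 and 15.4 FPKM (log2 ratio -0.22, implied standard error 0.29). In the list of 7 UBE2D and UBE2E names, UBE2D2, UBE2D4 and UBE2E2 were not analysed here.

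UBE2A, the other RAD6-type E2, encodes a protein closely related to that of UBE2B. Its values were 76.9 FPKM in Isfahani and 70.03 FPKM in Ross 708, a log2 ratio of -0.13 (implied standard error 0.27, q = 0.885 in the authors' deposited table). UBE2B thus made up 67.9% of the summed FPKM of the pair in Isfahani and 49.7% in Ross 708, and the sum was 239 and 139 FPKM. UBE2H, which in humans serves the CTLH ligase, stood at 41.98 and 39.6 FPKM (log2 ratio -0.08). These E3 partners of the RAD6-type enzymes were not called: RAD18 stood at 5.28 and 4.14 FPKM, RNF20 at 18.7 and 19.1 FPKM, UBR1 at 11.6 and 9.19 FPKM and UBR2 at 11.4 and 9.81 FPKM.

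**Figure D2:**
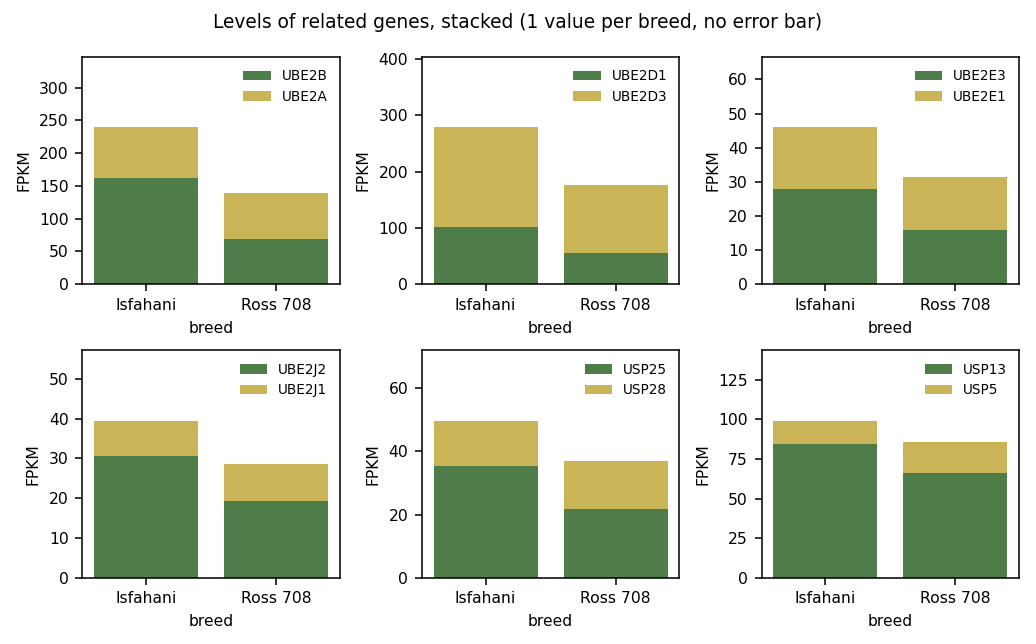
Stacked FPKM of 6 pairs of related genes in each breed, 1 value per breed and no error bar. The sum of UBE2A and UBE2B is 239 FPKM in Isfahani and 139 FPKM in Ross 708, and most of that gap lies in UBE2B.

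Lys63-linked chains, which serve in signalling and DNA repair, are built by UBE2N together with a UBE2V protein that lacks the catalytic cysteine. UBE2N stood at 39.8 and 36.1 FPKM, with a log2 ratio of -0.14 (implied standard error 0.27). UBE2V1 stood at 42.8 and 37.7 FPKM (log2 ratio -0.18) and UBE2V2, the more abundant partner, at 104 and 74.05 FPKM (log2 ratio -0.49, implied standard error 0.27, q = 0.349 in the authors' deposited table). The makers of Lys48 chains, which target proteins to the proteasome, were UBE2K with 105 and 74.3 FPKM (log2 ratio -0.49, implied standard error 0.28) and the CDC34 relative UBE2R2 with 41.8 and 38.8 FPKM (log2 ratio -0.10). None of these 5 genes was called, where 5.21% of all tested rows were.

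UBE2F, an E2 for the ubiquitin-like protein NEDD8, was also abundant, at 85.5 and 65.01 FPKM (log2 ratio -0.39, implied standard error 0.33). UBE2L6, which in mammals carries ISG15, stood at 53.95 and 38.7 FPKM. Its log2 ratio of -0.47 had the largest implied standard error of all members, 1.42, and 3 rows overlap its locus. UBE2O, a large enzyme with both E2 and E3 activity, stood at 10.7 and 7.05 FPKM (log2 ratio -0.54, implied standard error 0.47).

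UBE2C, the E2 of the anaphase-promoting complex, had the highest ratio of all members, with 5.22 FPKM in Isfahani and 10.8 FPKM in Ross 708. The log2 ratio of 0.93 had an implied standard error of 0.65, and the gene missed the threshold with q = 0.429 in the authors' deposited table. Of 8 other genes of dividing cells, such as MKI67 and TOP2A, all 8 had the higher value in Ross 708 and 2 were called, where 3.07% of all tested rows were called higher and 53.5% had the lower value there; their summed level was 22.5 FPKM in Isfahani and 39.4 FPKM in Ross 708. What part dividing cells had in the UBE2C value was not tested. UBE2T, the E2 of the Fanconi anaemia pathway, stood at 4.49 and 4.59 FPKM (implied standard error 0.60, with 1 row overlapping its locus). UBE2L3 and UBE2S were not analysed here.

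**Figure D3:**
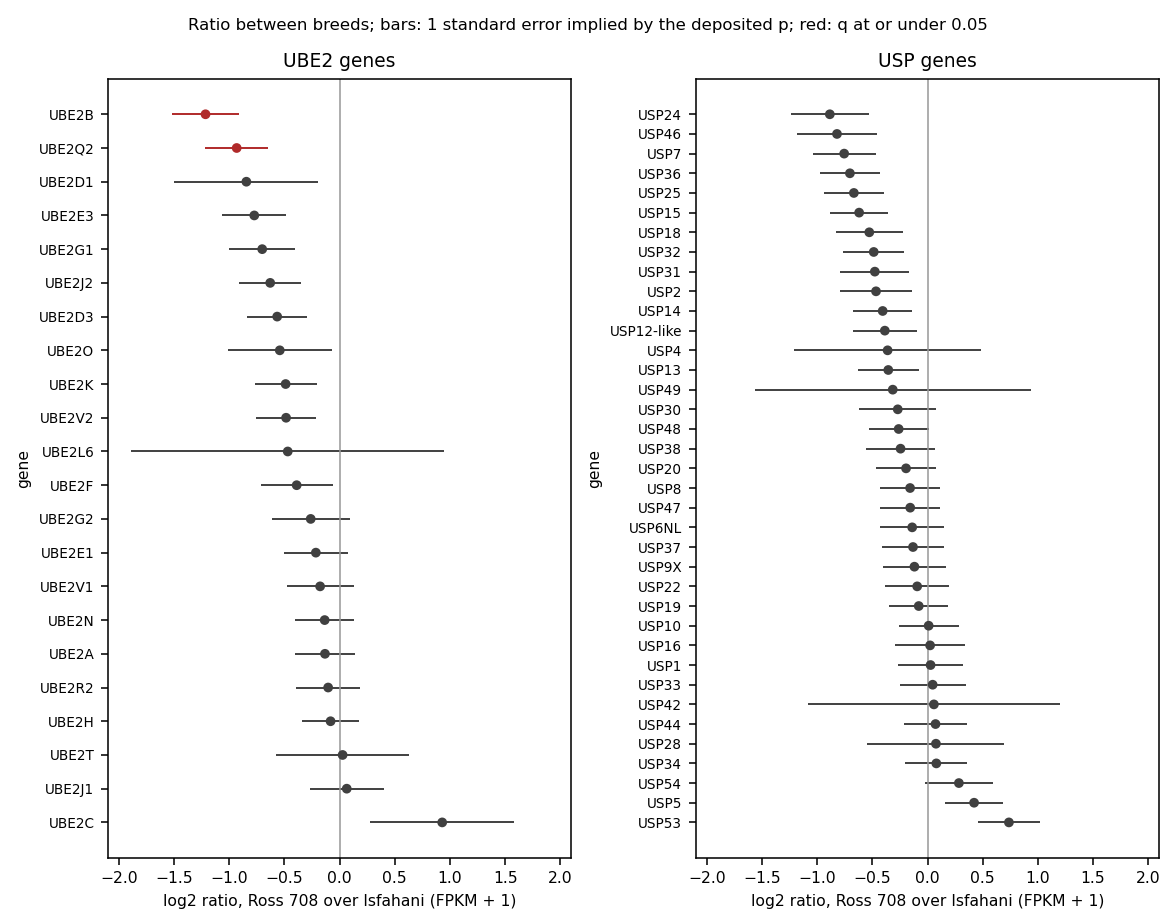
Log2 ratio of Ross 708 over Isfahani (FPKM + 1) for 22 of the 23 tested UBE2 genes (left) and 37 tested USP genes (right), with bars of 1 standard error as implied by the deposited p. The error is that of the deposited log2 fold change, which has no pseudocount. UBE2B at -1.22 and UBE2Q2 at -0.93, in red, are the called members, and the widest bar is that of UBE2L6.

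USP messages were less abundant than those of the E2 genes. Tested USP genes had a median of 12.9 FPKM in Isfahani and 10.5 FPKM in Ross 708, and the median USP gene stood at percentiles 65.7 and 61.6 of all tested rows. USP2 led in both breeds and was the only USP gene to reach 100 FPKM, with 158 FPKM in Isfahani and 114 FPKM in Ross 708. In mammals USP2 is a rhythmic gene under the circadian clock. It made up 19.0% and 17.8% of the summed USP FPKM. The log2 ratio was -0.47 (implied standard error 0.32, q = 0.496 in the authors' deposited table).

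**Figure D4:**
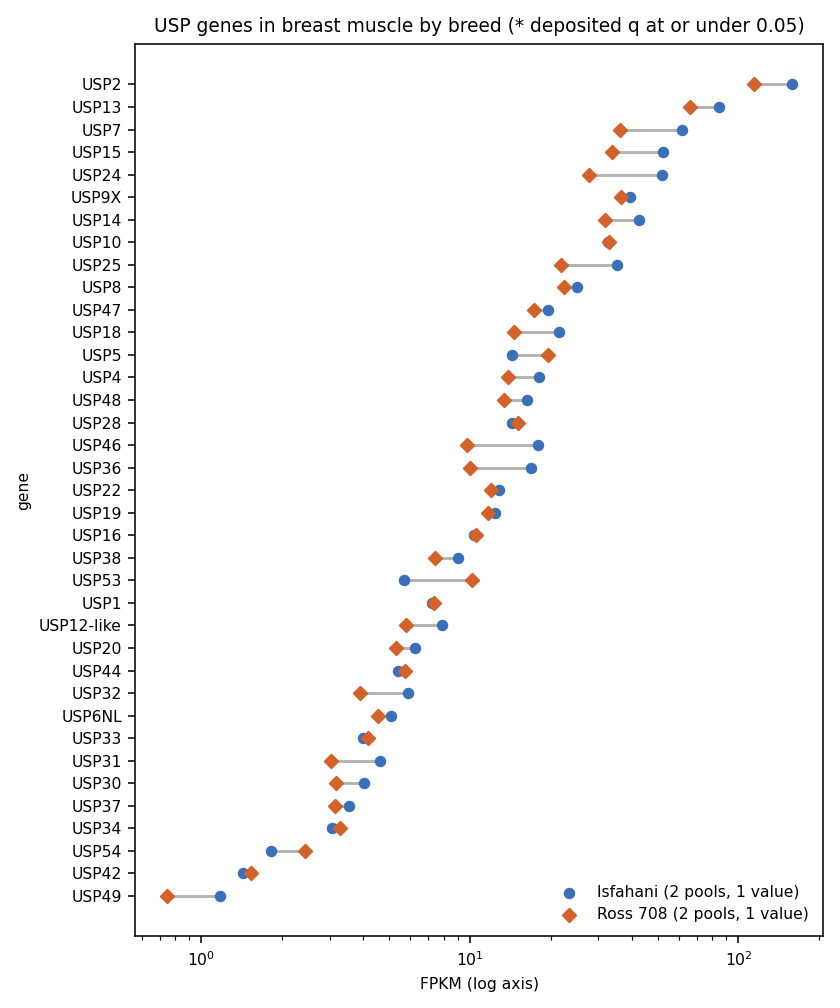
FPKM (log axis) of the 37 tested USP genes, 1 row per gene, with a circle for Isfahani and a diamond for Ross 708, each a single value from 2 pools. USP2 leads at 158 and 114 FPKM, and USP53 and USP5 are among the genes whose Ross 708 value is the higher; no gene is marked as called.

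USP genes that recycle ubiquitin differed among themselves in sign. USP13, a relative of USP5 that is known for high expression in skeletal muscle, stood at 84.7 and 65.9 FPKM, the second place in both breeds (log2 ratio -0.36, implied standard error 0.28). USP5, which takes apart free ubiquitin chains, stood at 14.3 and 19.6 FPKM (log2 ratio 0.42, implied standard error 0.27, q = 0.401 in the authors' deposited table). USP13 was 5.90 times as abundant as USP5 in Isfahani and 3.37 times in Ross 708; this shift was not tested. USP14, which trims chains on the proteasome, stood at 42.5 and 31.8 FPKM (log2 ratio -0.41, q = 0.453 in the authors' deposited table).

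The USP genes tied to muscle mass in rodents included USP19, whose loss spares muscle in wasting models. It stood at 12.4 FPKM in Isfahani and 11.7 FPKM in Ross 708, a log2 ratio of -0.08 (implied standard error 0.27, q = 0.935 in the authors' deposited table). USP25, of which mammals make a muscle isoform that binds sarcomeric proteins, stood at 35.3 and 21.9 FPKM (log2 ratio -0.67, implied standard error 0.27, p = 0.0113, q = 0.129 in the authors' deposited table). USP28, its closest relative, stood at 14.3 and 15.2 FPKM, with an implied standard error of 0.62 around a log2 ratio of 0.08; 7 rows, UBE4A among them, overlap the USP28 locus.

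Of all tested USP genes, none of them called, USP24 had the lowest ratio, at 51.96 FPKM in Isfahani and 27.7 FPKM in Ross 708 (log2 ratio -0.89, implied standard error 0.35, q = 0.117 in the authors' deposited table). USP46, which acts with the cofactor WDR48, stood at 18.0 and 9.75 FPKM (log2 ratio -0.82, implied standard error 0.36, q = 0.151 in the authors' deposited table). WDR48 itself stood at 4.71 and 4.68 FPKM and its partner WDR20 at 8.53 and 8.04 FPKM. USP7, which controls the stability of MDM2 and p53, stood at 61.9 and 36.2 FPKM (log2 ratio -0.76, implied standard error 0.29, q = 0.0945 in the authors' deposited table). USP36, a nucleolar enzyme of ribosome production, stood at 16.9 and 10.02 FPKM (log2 ratio -0.70, implied standard error 0.27, q = 0.0833 in the authors' deposited table).

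USP53 stood nearest to the threshold of all members that were not called, and its value was higher in Ross 708. The protein belongs to the USP fold and has been placed at cell junctions in mammals. Its level was 5.69 FPKM in Isfahani and 10.1 FPKM in Ross 708, a log2 ratio of 0.74 with an implied standard error of 0.28 (p = 0.00295, q = 0.0548 in the authors' deposited table). USP54, its relative, stood at 1.82 and 2.43 FPKM (log2 ratio 0.28). In the same pools the Ross 708 value was also the higher for all 5 tested markers each of adipocytes, endothelium, leukocytes and fibroblasts. The same held for MYH1A, the only tested fibre marker, for all 8 rows of dividing cells and for all 6 immediate early rows. Of all tested rows, 53.5% had the lower value in Ross 708. What part any of these cells had in the USP53 value was not tested.

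Genes of growth signalling ranged widely in level, from percentile 30.4 of all tested rows in Isfahani (USP34) to percentile 88.7 (USP15). USP15, which acts on TGF-beta receptors and SMADs, stood at 52.5 and 33.8 FPKM (log2 ratio -0.62, implied standard error 0.27, p = 0.017, q = 0.163 in the authors' deposited table). Its relative USP4 stood at 18.1 and 13.8 FPKM, with an implied standard error of 0.85 and 9 overlapping rows, RHOA and GPX1 among them. USP9X stood at 39.6 and 36.4 FPKM, the endosomal enzyme USP8 at 25.1 and 22.4, USP47 at 19.5 and 17.4, and USP34, linked to axin in Wnt signalling, at 3.05 and 3.28. USP10, which binds the stress granule protein G3BP1, had nearly equal values, 32.7 and 32.9 FPKM, as did G3BP1 with 94.9 and 92.5 FPKM.

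Among the chromatin and DNA repair enzymes other than USP7, ratios lay between -0.32 (USP49) and 0.072 (USP44). USP22, the deubiquitinase of the SAGA complex, stood at 12.9 and 11.98 FPKM, USP16, which acts on histone H2A, at 10.3 and 10.5, USP48 at 16.3 and 13.4, and USP1, which acts on FANCD2 and PCNA, at 7.21 and 7.36. USP44 stood at 5.40 and 5.73 FPKM and USP49, the lowest tested member, at 1.17 and 0.743 FPKM. The ratio of USP49 had a large implied standard error of 1.25, and 1 row overlaps its locus. USP18, which removes ISG15, stood at 21.4 and 14.5 FPKM (log2 ratio -0.53, implied standard error 0.31, q = 0.343 in the authors' deposited table). USP30, on the mitochondrial outer membrane, stood at 4.02 and 3.16 FPKM, and the related USP20 and USP33 at 6.22 and 5.31 and at 4.00 and 4.16 FPKM.

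The other tested USP rows were under 10 FPKM in both breeds. USP32 stood at 5.86 and 3.89 FPKM (log2 ratio -0.49, p = 0.034, q = 0.238 in the authors' deposited table) and USP31 at 4.62 and 3.03 FPKM (log2 ratio -0.48). USP38 (8.99 and 7.43 FPKM), USP12-like (7.88 and 5.79), USP37 (3.54 and 3.15) and USP42 (1.43 and 1.53) had q-values from 0.466 to 0.984 in the authors' deposited table. For USP42 the implied standard error was 1.14, and 14 rows overlap its locus. USP6NL, at 5.09 and 4.53 FPKM, matches the rule by name, but it encodes a GTPase-activating protein and no protease.

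Of the 66 rows, 6 have no test because the authors' status column marks them NOTEST. Listed at 0 in both breeds were UBE2M (like UBE2F an E2 for NEDD8), UBE2Q1 and the splicing factor USP39, all at loci named by a contig and not by a chromosome. USP12 was listed at 0.165 and 0.614 FPKM, USP35 at 0.156 and 0.145, and the last is the second UBE2J2 row. Of the 60 tested, 59 had at least 1 FPKM in both breeds and 40 had a mean of at least 10 FPKM. They lie on 23 chromosomes, 10 of them on chromosome 1, 7 on chromosome 4 and 5 on chromosome 14. No strand setting is named in the labels or the table, so reads of overlapping genes may be shared; 15 tested members overlap another row. The implied standard error had a median of 0.47 in those 15 and 0.28 in the other 45.

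**Figure D5:**
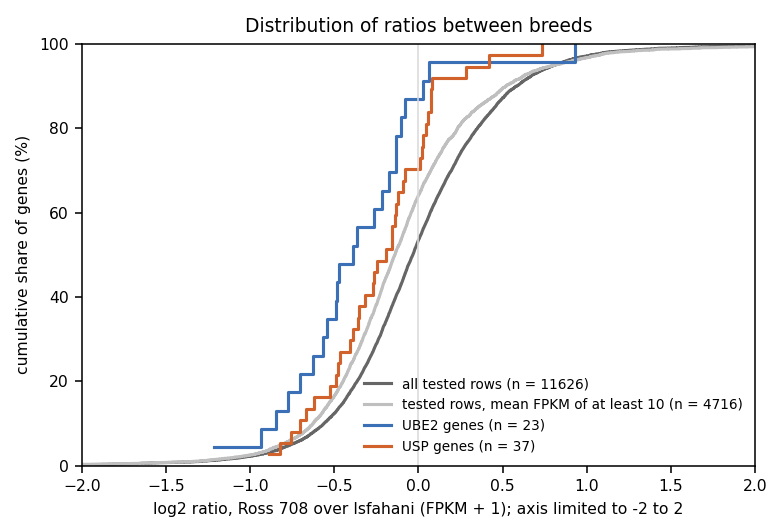
Cumulative share of genes (percent) by log2 ratio of Ross 708 over Isfahani, for all tested rows, tested rows with a mean of at least 10 FPKM, UBE2 genes and USP genes. The UBE2 curve lies to the left, with a median of -0.39 against -0.034 for all tested rows.

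The median log2 ratio was -0.39 for the 23 tested UBE2 rows, -0.20 for the 37 USP rows and -0.034 for all 11626 tested rows. Abundant genes were lower in Ross 708 more generally: among 4716 tested rows with a mean of at least 10 FPKM the median was -0.14 and 64.2% had the lower value in Ross 708. On the same filter all 19 UBE2 rows and 17 of 21 USP rows had the lower value there, with medians of -0.47 and -0.36. The filter leaves out UBE2C, UBE2J1 and UBE2T, the UBE2 rows with the higher value in Ross 708, and also UBE2O, which was lower. A ratio at or under -0.5 was found for 34.8% of UBE2 rows, 18.9% of USP rows and 12.4% of all tested rows. Summed over tested rows, the UBE2 genes came to 1866 FPKM in Isfahani and 1253 FPKM in Ross 708, and the USP genes to 835 and 643 FPKM. These are descriptions of 4 pools and carry no test. In bulk muscle, fewer cells of a type and less RNA per cell cannot be told apart.

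The rest of the pathway was read from a list of 110 other gene names, of which 81 matched a row and 75 rows were tested. Of these, 1 row passed the threshold with the higher level in Ross 708 and 0 with the lower, where 3.07% and 2.14% of all tested rows did. At an unadjusted deposited p at or under 0.05 the counts were 3 (4.00%) and 5 (6.67%), below the 9.06% and 7.96% of all tested rows. The called gene was UCHL1, a deubiquitinase of another family best known from neurons (20.4 FPKM in Isfahani and 47.04 FPKM in Ross 708, log2 ratio 1.17, implied standard error at most 0.30, q = 0.00245 in the authors' deposited table). RPS27A, which encodes ubiquitin fused to a ribosomal protein, had almost equal values of 1242 and 1223 FPKM. Of 7 E1-type genes tested none was called; UBA6, which charges ubiquitin, stood at 8.13 and 6.75 FPKM and UBA3, the catalytic E1 subunit for NEDD8, at 53.1 and 40.8 FPKM. UBB and UBA1 were not analysed here.

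A list of E3 ligases had a median log2 ratio of -0.30 over 13 tested rows, none called (5.21% of all tested rows were). It holds HECT, RBR and U-box types and also RAD18, RNF20, UBR1 and UBR2, the partners of the RAD6-type enzymes. UBE3A stood at 22.7 and 13.99 FPKM (log2 ratio -0.66, implied standard error 0.27, q = 0.113 in the authors' deposited table) and ARIH2 at 42.4 and 24.8 FPKM (log2 ratio -0.75, implied standard error 0.36, q = 0.222 in the authors' deposited table). The 12 tested rows of OTU deubiquitinases had a median of 0.034, the 13 of the SUMO, NEDD8 and ISG15 cycle -0.33, and the 75 rows together -0.15. SUMO2 stood at 164 and 117 FPKM and the SUMO protease SENP5 at 26.6 and 17.5 FPKM (q = 0.194 in the authors' deposited table).

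The enrichment sheet for genes higher in the native breed names UBE2B in 68 of its 254 terms and UBE2Q2 in 14. It names no other member, and the sheets for Ross 708 name none. UBE2B and UBE2Q2 are also the only called members, and both were lower in Ross 708. Which members the sheets name therefore repeats the calls and is not a separate result. The term protein ubiquitination held 18 of 169 listed genes, both members included. Its fold enrichment was 2.32, with p = 0.0019 and a Benjamini-adjusted p of 0.209 in the authors' deposited table. That adjusted p was above the threshold used here for q-values. Some broader terms with both members were under it. An example is protein modification process, with 67 of 169 listed genes and a Benjamini-adjusted p of 0.00367 in the authors' deposited table.

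As to the tissue label, the fast-fibre markers TNNI2 and TNNT3 were listed at 13272 and 11956 FPKM in Ross 708 and at 0 in Isfahani, and ACTA1 at 0 in both. The status column marks these 3 rows HIDATA, without a valid test, so fibre content cannot be read from them. MYH1A stood at 80.04 and 154 FPKM (q = 0.0429 in the authors' deposited table). Marker lists of other cells were higher in Ross 708 in summed level. The sums were 109 and 405 FPKM for adipocytes, 1727 and 2817 for fibroblasts, 2219 and 2872 for leukocytes and 31.3 and 42.6 for endothelium. Called higher were 3 of 5 tested rows for adipocytes, 1 of 5 for fibroblasts, 1 of 5 for leukocytes and 0 of 5 for endothelium, against 3.07% of all tested rows. Most of the leukocyte sum was CD74, at 2138 and 2734 FPKM (q = 0.940 in the authors' deposited table). Most of the fibroblast sum was COL3A1, at 957 and 1582 FPKM (q = 0.302 in the authors' deposited table). Immediate early genes summed to 176 and 712 FPKM, and 5 of 6 rows were called higher. These rows cover 5 genes, because FOSL2 is listed more than once. The globin genes HBAA and HBAD and the collagen gene COL1A1 were listed at 0 in both. CKM, MYLPF, RYR1, PYGM, PECAM1 and TYROBP were not analysed here. What part these shifts had in the lower E2 values of Ross 708 was not tested.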

How the data were processed

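Trizol-extracted RNA went into TruSeq (version 2) libraries read as pairs of 150 bases, per the labels' protocols. The submitters' processing notes name FastQC (0.11.5) and Trimmomatic, HISAT2, Cufflinks (2.2.1) and the galGal5 build. Neither library scaling nor annotation is given in the sources used here. All deposited FPKM columns hold 1 value per breed, per the file headers. The deposited log2 fold change, p-value and q-value come from the authors' comparison over 11626 rows with status OK; their test statistic, a deposited score, was left out. The enrichment sheet gives the authors' gene counts per term, p-values and fold enrichment as a ratio.

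Computed here, with Python 3.11.15, pandas 2.3.3, numpy 2.4.6 and scipy 1.17.1, were the ratio with a pseudocount of 1 FPKM, the implied standard error, counts of calls, medians, sums and overlaps of loci. The counting and error steps were tested on simulated data. With 1 value per breed no test over libraries could be run. The p-values speak for these pools, which may share a flock. The labels give no batch and no sex. Members, lists and alternatives were chosen with earlier results of these data known; the unadjusted threshold and the filter at a mean of 10 FPKM were added after the values had been seen. Named were all called members, the most abundant ones, the largest ratios in each direction, those tied to muscle wasting, and called genes of the pathway lists; the other members follow apart from 1 tested UBE2 gene that is counted but not reported here. RefSeq (GRCg7b, names alone) holds 61 of the 65 member names as protein-coding symbols.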

Additional observations from a re-analysis of the deposited data

How the results depend on the processing

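Neither leaving out a library nor a fit with a block was run. No paired analysis was possible because the columns hold 1 value per breed. The 2 UBE2 genes called lower in Ross 708 became 1 at a q-value threshold of 0.01 or with a log2 ratio of at least 1 in size, UBE2B in both cases, and 6 at an unadjusted p at or under 0.05. USP calls were 0 in each direction. They became 1 higher and 2 lower at a q-value threshold of 0.1, and 1 higher and 7 lower at an unadjusted p. Of all tested rows, 4.32% were higher and 3.18% lower at a q of 0.1. At the unadjusted p, 9.06% were higher and 7.96% lower. Shares of all tested rows at a q of 0.01 or with the ratio threshold were not computed. For the other pathway genes the unadjusted p gave 3 higher (4.00%, against 9.06% of all tested rows) and 5 lower (6.67%, against 7.96%).

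Rescaling to the sum of all rows shifts the log2 ratio of FPKM by -0.13, and the ratio with the pseudocount by less for genes of low level, because rows without a valid estimate are listed at 0 in Isfahani; without them the shift was 0.049. Under the first, the UBE2 median was -0.52, the USP median -0.31, the log2 ratio of summed UBE2 levels -0.71 (main -0.57) and that of USP -0.51 (main -0.38). It also turned 10 of 60 member ratios from just above 0 to below it, none of them called; other scalings and pseudocounts turned none. Without overlapping rows the UBE2 median was -0.24. At a mean of at least 10 FPKM the USP median was -0.36. Other medians moved by no more than 0.1. Unknown depth and pooling limit every value.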

Other observations

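Some rows join a UBE2 or USP gene with a neighbour under several names, and their values cannot be split between the genes. The row of FBXL22 and USP3, an enzyme that acts on histones, stood at 10.2 FPKM in Isfahani and 23.3 FPKM in Ross 708, a log2 ratio of 1.11 (p = 0.0234, q = 0.194 in the authors' deposited table). The row of PNISR and USP45 stood at 35.4 and 33.05 FPKM. The row of UBE2Z and ATP5G1, a gene of mitochondrial ATP synthase, stood at 1031 and 832 FPKM (q = 0.731 in the authors' deposited table).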
